A study of Homo sapiens with 9 samples.

Results

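The nuclear subunits of the respiratory chain were taken by gene name: NDUFA, NDUFB, NDUFS and NDUFV genes ending in a number, SDHA to SDHD, UQCRC1, UQCRC2, UQCRB, UQCRQ, UQCRH, UQCRFS1, UQCR10 and UQCR11, and COX4I1, COX5A, COX5B, COX6A1, COX6B1, COX6C, COX7A2, COX7B, COX7C and COX8A. Of the 60623 genes measured, 57 met this rule, which uses gene names alone. They comprise 35 genes of complex I, 4 of complex II, 8 of complex III and 10 of complex IV. NDUFA4 was kept with complex I by its name, although its protein is now regarded as a part of complex IV.

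RNA was sequenced from U937, a human monocytic cell line, in 3 stable lines made by retroviral transduction: one with the empty vector (CTR), one with HA-tagged AML1-ETO (AE, clone #4) and one with HA-tagged ETO2-GLIS2 (EG, clone #14). All 3 lines carried the doxycycline-controlled Tet system and received 5 μg/ml doxycycline for 0, 12 or 48 h, the empty vector line included. AML1-ETO and ETO2-GLIS2 are leukemia fusion proteins that act on transcription. Each line is 1 cell population and each line and time has 1 library, so a clone and its fusion protein cannot be told apart, no difference has a replicate check, and no p-value was computed.

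The respiratory chain passes electrons from NADH and succinate to oxygen across the inner mitochondrial membrane and pumps protons as it does so. Complex I oxidizes NADH, complex II oxidizes succinate and is at the same time an enzyme of the citric acid cycle, complex III passes electrons from ubiquinol to cytochrome c, and complex IV reduces oxygen to water. Complexes I, III and IV join nuclear subunits, which are imported from the cytosol, to core subunits that the mitochondrial genome encodes, whereas complex II is nuclear throughout. The transcription factors NRF1, GABP and YY1 are known regulators of many of the nuclear subunit genes.

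The promoters of 4 members are shown because their genes behaved differently below: COX5B, NDUFA1 and SDHD had a higher level in the uninduced EG line than in the uninduced CTR line and rose in the CTR line, and UQCRC1 did neither. The sequences are the 250 bases before the annotated start, from RefSeq on GRCh38.p14, at chr2:97645812-97646061 (+), chrX:119871582-119871831 (+), chr11:112086623-112086872 (+) and chr3:48609647-48609896 (-), each 5′ to 3′ on the gene's own strand. Capitals mark matches on either strand to the NRF1 motif, which is GCGCA and GCGC with any 1 base between them, or the GABP motif CCGGAAG.
COX5B: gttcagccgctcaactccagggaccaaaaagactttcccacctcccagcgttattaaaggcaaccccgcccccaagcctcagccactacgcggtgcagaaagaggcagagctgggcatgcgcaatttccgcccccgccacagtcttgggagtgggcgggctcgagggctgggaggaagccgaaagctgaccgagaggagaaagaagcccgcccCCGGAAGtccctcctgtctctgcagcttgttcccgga
NDUFA1: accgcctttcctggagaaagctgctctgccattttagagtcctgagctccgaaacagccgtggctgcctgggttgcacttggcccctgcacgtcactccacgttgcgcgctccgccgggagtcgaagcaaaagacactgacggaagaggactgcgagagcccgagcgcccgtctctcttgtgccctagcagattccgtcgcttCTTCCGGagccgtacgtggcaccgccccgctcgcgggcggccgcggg
SDHD: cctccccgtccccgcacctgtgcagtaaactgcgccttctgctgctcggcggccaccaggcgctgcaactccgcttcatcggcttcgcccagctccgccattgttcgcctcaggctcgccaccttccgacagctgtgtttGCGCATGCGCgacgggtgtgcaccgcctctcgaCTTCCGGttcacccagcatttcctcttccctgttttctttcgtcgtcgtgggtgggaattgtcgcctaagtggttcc
UQCRC1: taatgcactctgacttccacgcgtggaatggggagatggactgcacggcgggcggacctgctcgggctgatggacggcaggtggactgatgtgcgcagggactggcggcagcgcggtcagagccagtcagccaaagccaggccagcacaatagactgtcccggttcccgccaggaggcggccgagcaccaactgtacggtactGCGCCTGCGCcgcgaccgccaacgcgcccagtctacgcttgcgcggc

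COX5B and NDUFA1 each held 1 GABP match, SDHD held 1 match to each motif, and UQCRC1 held 1 NRF1 match. Among the members, 49 matched the promoter table, and among those without an entry were COX6C, NDUFA4, NDUFB5, NDUFB9, NDUFS5, SDHC and UQCRB. The NRF1 motif was found in 10 of the 49 promoters, or 20.4%, against 5.53% of all 27305 promoters of the same length. The GABP motif was found in 14, or 28.6%, against 8.82%. The YY1 motif ATGGCGGC was found in 2, NDUFA7 and NDUFS8, or 4.08%, against 1.34%. The motifs were spread unevenly over the complexes: of the 9 complex IV promoters, 4 held the GABP motif (COX5B, COX6A1, COX6B1 and COX8A) and none held the NRF1 motif, while of the 7 complex III promoters, 3 held each.

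FPKM, the unit of the measured values, is the number of reads on a gene per kilobase of exon and scaled to the reads counted in the library, so that levels can be compared between genes per length. The reads behind the FPKM values could be recovered, and the libraries held between 15.1 × 10⁶ and 18.4 × 10⁶ reads on genes. The constructs appeared where the labels place them: RUNX1T1, the ETO part of AML1-ETO, stood at 0.512, 22.2 and 28.7 FPKM at 0, 12 and 48 h in the AE line and at no more than 0.024 FPKM in the other 6 libraries. GLIS2 went from 2.39 to 6.79 and 8.85 FPKM in the EG line, against 3.64 to 4.76 FPKM in the CTR line. The myeloid markers PTPRC, CD33, CD4, LYZ and ELANE were expressed in all 9 libraries, whereas CD3D, CD3E, MS4A1, HBB and EPCAM were listed at 0 in all of them. CD14 did not exceed 0.0802 FPKM. PECAM1, listed here with markers of other cell types but not exclusive to them, was detected at 13.6 to 28.2 FPKM.

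The members differed widely in level, from NDUFV2 with a mean of 0.215 FPKM over the 9 libraries to NDUFS5 with 205 FPKM. Much of this spread went with exon overlap. The authors' counter, run with default parameters, drops a read that falls on 2 genes it treats as overlapping, which by default are genes on the same strand. In the annotation used here, 24 members share more than 5% of their exon bases with another gene on either strand. These 24 had a median mean level of 3.08 FPKM, and 12 of them were under 3 FPKM, against a median of 35.3 FPKM and none under 3 FPKM for the other 33. The low members include the catalytic subunits SDHA, NDUFV2 and NDUFS7. SDHA and NDUFV2 share 21.7% and 28.4% of their exon bases on the same strand. NDUFS7 shares 51.5% on the opposite strand only, which the same-strand rule does not cover. Whether the default strand setting was in effect was not established here. A count that ignores strand would also drop reads on opposite-strand overlap, as in NDUFS7. How much the dropped reads contribute to these low levels was not tested, and the main results are given below with and without the 24 members. In addition, 33 members have named pseudogenes, but only NDUFV2, SDHC and SDHD have an exact copy of more than 5% of their exon bases elsewhere in the genome.

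**Figure D1:**
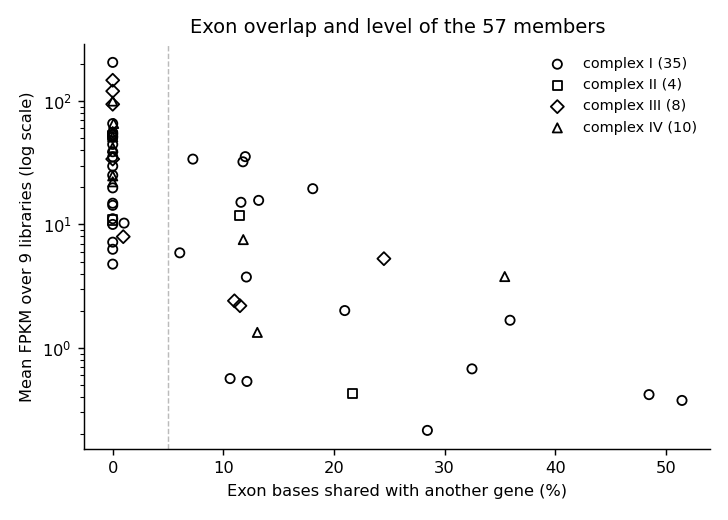
Mean FPKM over the 9 libraries (log scale) against the percentage of exon bases shared with another gene, for the 57 members, with 1 symbol per complex. The dashed line is at 5%; the 33 members at or left of it lie between 4.77 and 205 FPKM, and the 24 right of it between 0.215 and 35.4 FPKM.

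To find how the subunits behaved in each line, each level at 12 or 48 h was divided by the uninduced one of that line after adding 0.01 FPKM, and the log2 of this ratio is called the log2 fold change. By the median, the members were higher late in the CTR line, higher early in the AE line without a further increase, and slightly lower in the EG line. The median log2 fold change of the 57 members was 0.05 at 12 h and 0.49 at 48 h in the CTR line, 0.41 and 0.30 in the AE line, and -0.06 and -0.16 in the EG line. Over all genes averaging 1 FPKM or more in the libraries compared, the medians were all above 0, at 0.14 and 0.16, 0.18 and 0.22, and 0.11 and 0.16. The members therefore lay above the bulk of genes in the CTR line at 48 h and in the AE line at 12 h, and below it in the EG line at both times. Rescaling the libraries by the median ratio brings the bulk near 0 by its construction, so the reason for the shift of the bulk was not tested. After this rescaling all genes lay between -0.07 and -0.02. The members then lay at -0.15 and 0.30 in the CTR line, 0.21 and 0.06 in the AE line and -0.20 and -0.40 in the EG line. The sign of the CTR line at 12 h thus flips with the scaling, and the other 5 signs do not. Without the 24 overlapping members, the medians on the deposited scale were 0.05 and 0.45, 0.40 and 0.12, and -0.06 and -0.20. The AE line at 48 h then lay below all genes instead of above them. Taken as the sum of FPKM over the 57 members, in which the genes of high level weigh most, the log2 ratios were -0.07 and 0.31, 0.28 and 0.06, and -0.08 and -0.23, so the CTR line at 12 h changed sign and the AE line at 48 h was again below the median of all genes.

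**Figure D2:**
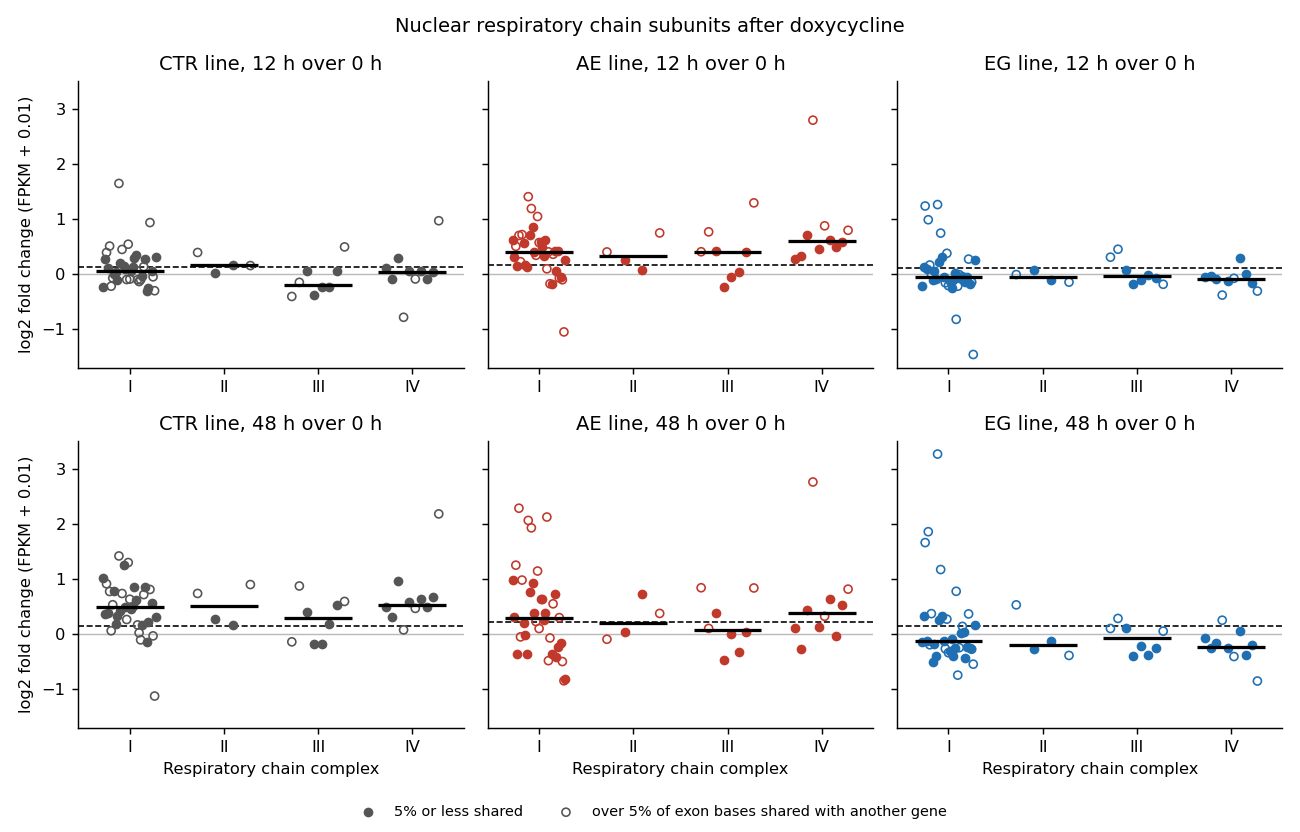
Log2 fold change of each member over 0 h of the same line, by complex, at 12 h (top) and 48 h (bottom) in the CTR, AE and EG lines. Filled points share 5% or less of their exon bases with another gene and open points more; the black bar is the median of the complex and the dashed line the median of all genes, which the bars, drawn over all members, exceed in the CTR line at 48 h and in the AE line at 12 h, and do not reach in the EG line. Without the open points, the medians of complexes II and III in the AE line at 12 h are 0.169 and 0.047, below the 0.176 of all genes.

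Counts of single members show the same order. A member was counted when its FPKM changed by more than 1.5-fold and its mean FPKM was at least 1 in the 2 libraries compared. In the CTR line, 1 of 48 members was higher and none lower at 12 h, against 14.4% and 3.77% of all genes. At 48 h, 17 of 50 were higher and none lower, against 20.4% and 7.40% of all genes. In the AE line, 14 of 49 were higher and none lower at 12 h (18.0% and 6.17% of all genes), and 15 of 50 were higher and 1 lower at 48 h (31.7% and 18.5% of all genes). With all members, the AE count at 48 h is thus near the background, and that at 12 h and in the CTR line at 48 h above it. In the EG line, none of 49 members passed in either direction at 12 h (8.92% higher and 3.39% lower among all genes), and at 48 h 1 of 50 was higher and 2 lower (22.4% and 6.24%). Of the 17 members counted in the CTR line at 48 h, 9 were among the 33 without overlap, still a larger share than that of all genes. Of the 15 counted in the AE line at 48 h, 8 were, a smaller share than the 31.7% of all genes. Of the 14 counted in the AE line at 12 h, 6 were, which is 18.2% of the 33 members without overlap and near the background. After rescaling by the median ratio 5 members were counted there. The share of all genes after rescaling is not given here, so this count has no background beside it.

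Complex IV had the highest median of the 4 complexes in the CTR line at 48 h and in the AE line at 12 h. Its 10 genes had a median log2 fold change of 0.05 at 12 h and 0.53 at 48 h in the CTR line, 0.60 and 0.38 in the AE line, and -0.08 and -0.23 in the EG line. Without overlapping members, the AE value at 48 h was 0.12, below the 0.22 of all genes. All 10 were higher at 48 h in the CTR line and all 10 at 12 h in the AE line, where 63.2% and 66.8% of all genes were higher, and 8 of 10 were lower at each time in the EG line, not in every case the same genes, where 32.6% and 36.2% of all genes were lower. COX5B, a zinc-binding subunit, had 28.4, 34.7 and 55.6 FPKM at 0, 12 and 48 h in the CTR line, 40.4, 65.9 and 54.6 FPKM in the AE line, and 63.6, 59.8 and 56.7 FPKM in the EG line. It started at 3 separate levels and ended at nearly the same level in all 3 lines. Its log2 fold change at 48 h was 0.97 in the CTR line, with a 95% counting interval from 0.83 to 1.11, 0.43 (0.31 to 0.56) in the AE line and -0.16 (-0.27 to -0.06) in the EG line. These intervals are exact Clopper-Pearson intervals on the recovered reads, 655 to 1664 for COX5B, and cover counting error only.

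COX5A, which had the highest level of the nuclear complex IV genes, went from 84.6 to 79.6 and 105 FPKM in the CTR line, from 101 to 127 and 83.7 FPKM in the AE line and from 113 to 110 and 94.6 FPKM in the EG line. In the AE line it was highest at 12 h and ended below its start. COX7B, at 20.7, 29.3 and 20.3 FPKM, returned likewise to its starting level in the AE line, while COX7A2, the ubiquitous form of subunit 7A, kept its rise there, with 19.6, 30.2 and 30.5 FPKM. COX8A, a small subunit, ran in opposite directions in the lines: 0.747, 1.47 and 3.42 FPKM in the CTR line, 2.56, 4.46 and 4.52 FPKM in the AE line, and 7.13, 5.77 and 3.96 FPKM in the EG line. Its values rest on 6 to 65 reads, and it shares 35.4% of its exon bases with another gene. COX6A1, with 4 reads at 0 h in the AE line, showed the largest complex IV values of that line, log2 fold changes of 2.79 at 12 h and 2.76 at 48 h, the latter with an interval from 1.3 to 4.80. Its mean FPKM there was below 1, so it was not counted. COX6C, with 11.2, 10.6 and 8.43 FPKM in the EG line, was next to COX8A the member of complex IV that was lowest there relative to 0 h.

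Complex I had a median of 0.05 at 12 h and 0.49 at 48 h in the CTR line, 0.40 and 0.30 in the AE line, and -0.05 and -0.13 in the EG line. NDUFA1, a small accessory subunit encoded on the X chromosome, had 31.0, 26.4 and 62.5 FPKM in the CTR line, 50.1, 77.6 and 98.8 FPKM in the AE line, and 88.0, 76.2 and 79.7 FPKM in the EG line. The rise came between 12 and 48 h in the CTR line and was spread over both intervals in the AE line, and the EG line was highest before induction. The log2 fold change at 48 h was 1.01 (0.77 to 1.26) in the CTR line, 0.98 (0.79 to 1.17) in the AE line and -0.14 (-0.31 to 0.02) in the EG line, where the interval includes 0. NDUFB1, another accessory subunit of the membrane arm, went from 4.05 to 4.50 and 9.62 FPKM in the CTR line, from 5.36 to 9.73 and 10.1 FPKM in the AE line and from 6.06 to 7.54 and 7.67 FPKM in the EG line. Unlike NDUFA1, it was also higher at 48 h than at 0 h in the EG line.

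The catalytic core of complex I did not follow its accessory subunits. The 7 nuclear core subunits, which carry the flavin and the iron-sulfur clusters (among them NDUFS1, NDUFS3, NDUFS7, NDUFS8, NDUFV1 and NDUFV2), had medians of 0.17 in the CTR line at 48 h and -0.10 and -0.17 in the AE line at 12 and 48 h. The 28 accessory subunits had 0.50, 0.46 and 0.39 in the same libraries. At 12 h in the AE line, 28 of 28 accessory subunits were higher and 6 of 7 core subunits lower (33.2% of all genes were lower). NDUFV1, which binds NADH, had 39.4, 36.7 and 27.9 FPKM in the AE line, whereas NDUFS3 went up, with 16.96, 21.8 and 24.9 FPKM. In the EG line core and accessory subunits lay close together, at medians of -0.07 and -0.03 at 12 h and -0.24 and -0.13 at 48 h. Of the core subunits, 5 share more than 5% of their exon bases with another gene.

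Single members of complex I went against the rest. NDUFV3, an accessory subunit beside the NADH-binding module, had 9.01, 11.2 and 11.2 FPKM in the CTR line, 10.0, 12.1 and 5.74 FPKM in the AE line and 9.28, 11.04 and 10.5 FPKM in the EG line. It was the only member counted as lower in the AE line at 48 h, with a log2 fold change of -0.81 (-0.96 to -0.66), and its other 8 values lay between 9.01 and 12.1 FPKM. NDUFB9 had 24.7, 21.2 and 14.8 FPKM in the EG line, a fall of 0.74 on the log2 scale, and NDUFA4 had 33.7, 31.2 and 23.8 FPKM there. NDUFS5, the member with the highest level, did not rise in the CTR line either, at a log2 fold change of -0.13 at 48 h. NDUFA13, also known as GRIM-19, rose in all 3 lines, from 1.39 to 2.38 FPKM, from 1.07 to 5.24 FPKM and from 0.641 to 2.35 FPKM between 0 and 48 h, on 32 to 216 reads and with 21.0% of its exon bases shared with AC011448.1 or YJEFN3. NDUFA7 and NDUFB2, which overlap other genes as well, were also among the highest: NDUFB2 had 0.802, 1.17 and 1.99 FPKM in the CTR line and 0.990, 2.05 and 2.20 FPKM in the AE line, and NDUFA7 went from 0.433 to 1.84 FPKM on 10 and 39 reads in the AE line. NDUFA3 followed NDUFA1 in direction in the AE line, with 4.43, 7.30 and 8.76 FPKM.

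Complex II has 4 genes, and they did not move together. SDHB, the iron-sulfur subunit, had 47.2, 48.2 and 56.9 FPKM in the CTR line, 49.5, 59.4 and 51.0 FPKM in the AE line and 56.8, 59.6 and 47.3 FPKM in the EG line. All 9 values lay within a narrow band, and the 3 lines crossed. SDHD, a membrane anchor, had 6.41, 7.15 and 12.0 FPKM in the CTR line, 7.20, 12.1 and 9.35 FPKM in the AE line and 19.8, 17.9 and 15.2 FPKM in the EG line. The EG line thus stood above both other lines at every time, and its uninduced level exceeded that of the CTR line by 1.62 on the log2 scale (1.44 to 1.82). SDHC, the other anchor, stayed between 8.81 and 11.4 FPKM in 8 libraries and reached 17.8 FPKM in the AE line at 48 h, a log2 fold change of 0.72 (0.65 to 0.79). The exon length behind its FPKM values, 14160 bases, exceeds the 1902 bases of the annotation used here, so its exon model differs between the 2. SDHA, the flavoprotein, was listed at 0.322 to 0.615 FPKM on 43 to 83 reads. Its log2 fold changes had wide counting intervals, such as 0.24 to 1.28 in the CTR line at 48 h and -0.72 to 0.52 in the AE line at 48 h, and its mean was too low to enter the counts.

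**Figure D3:**
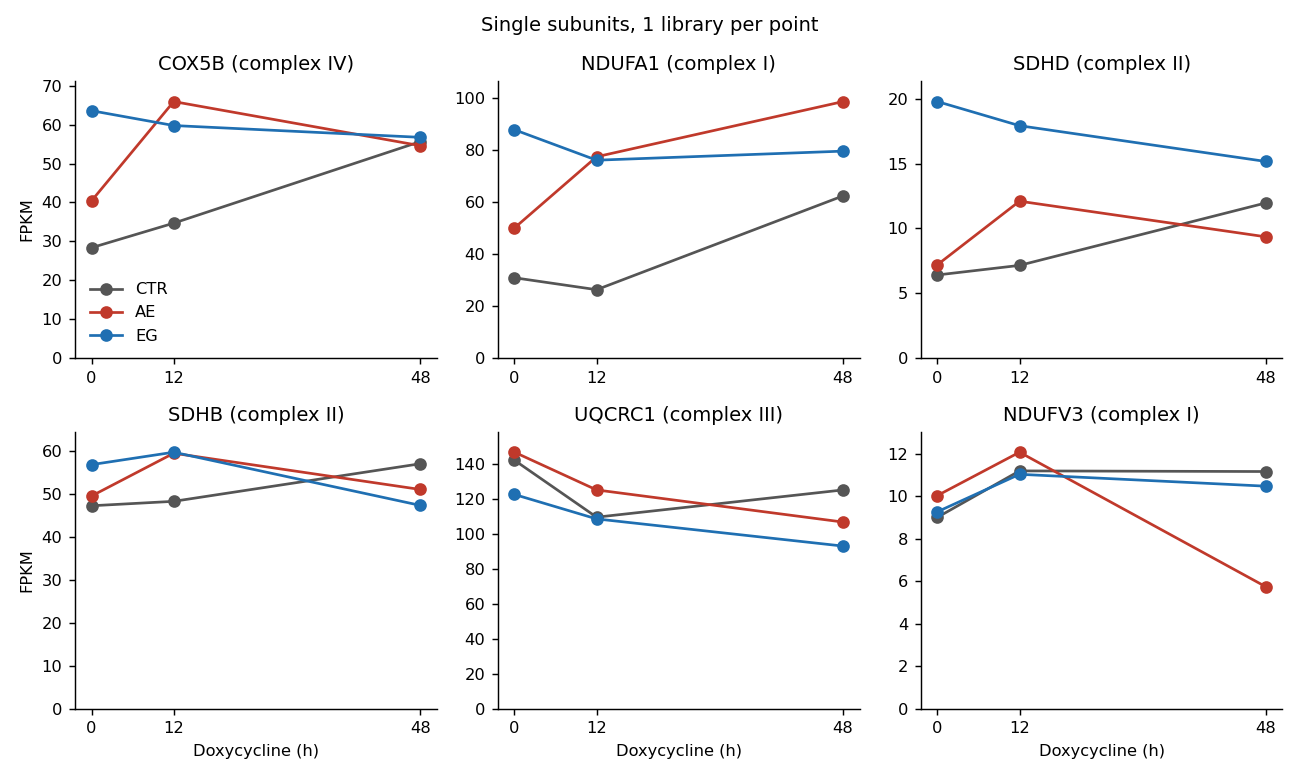
FPKM at 0, 12 and 48 h of doxycycline in the CTR, AE and EG lines for 6 members, 1 library per point and each vertical axis from 0. COX5B ends at 54.6 to 56.7 FPKM in all 3 lines, SDHD is highest in the EG line at every time, UQCRC1 is below its 0 h level at 48 h in each line, and NDUFV3 falls to 5.74 FPKM only in the AE line at 48 h.

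The genes of complex III did not move together. UQCRC1 and UQCRC2, the core proteins on the matrix side, and UQCRFS1, the Rieske iron-sulfur protein, stayed within 1.5-fold of 0 h in all 6 induced libraries. UQCRC1 had 142, 110 and 125 FPKM in the CTR line, 147, 125 and 107 FPKM in the AE line and 123, 109 and 93.2 FPKM in the EG line. It was lower than at 0 h in all 6 induced libraries, on 4882 to 7805 reads, and at 48 h its intervals lay below 0 in each line. UQCRC2 was between 82.5 and 104 FPKM throughout. UQCRFS1 had 28.9, 24.7 and 33.0 FPKM in the CTR line, 35.7, 36.9 and 28.5 FPKM in the AE line and 42.3, 41.8 and 32.6 FPKM in the EG line, so that its 48 h value was the lowest in both fusion protein lines. UQCRH, the hinge protein, followed the complex IV pattern instead, with 110, 114 and 159 FPKM, then 155, 204 and 159 FPKM, and 151, 144 and 127 FPKM. In the CTR line UQCR11 was the highest of the complex at 48 h, at a log2 fold change of 0.87, and in the AE line UQCR10 was, at 0.84. UQCRB and the small subunits UQCR10, UQCR11 and UQCRQ were at 1.3 to 10.2 FPKM. The largest of their changes was that of UQCRQ in the AE line, with 1.31, 3.21 and 2.34 FPKM on 48, 110 and 79 reads. The median of the 8 genes was -0.19 and 0.30 in the CTR line, 0.40 and 0.07 in the AE line and -0.04 and -0.08 in the EG line. The AE value at 12 h rests on overlapping members: without them, or from a mean of 5 FPKM, it was 0.047, below the 0.176 of all genes. The summed FPKM of the complex, in which UQCRC1, UQCRC2 and UQCRH weigh most, changed by -0.19 and 0.10, 0.10 and -0.12, and -0.08 and -0.27 on the log2 scale, so the AE line at 48 h changed sign between the median and the sum.

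The lines differed before doxycycline. At 0 h, the members had a median log2 difference of 0.23 between the AE and CTR lines and 0.45 between the EG and CTR lines, whereas all genes had 0.01 and -0.02. In 36 of the 57 members the order of levels was CTR below AE below EG, against 19.9% of all genes. For complex IV, this order held in 9 of 10 genes, and the EG line exceeded the CTR line in all 10 (48.6% of all genes), with a median difference of 0.88 on the log2 scale. More than 1.5-fold differences between the EG and CTR lines at 0 h were counted in 23 members upward and 1 downward, of 50, against 10.2% and 9.35% of all genes.

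At 48 h these differences had mostly closed. The AE and EG lines then differed from the CTR line by medians of 0.08 and -0.01 (all genes 0.07 and 0.03), and the order CTR below AE below EG held in 11 members, against 8.51% of all genes. The median distance between the highest and the lowest of the 3 lines was 0.58 at 0 h, 0.70 at 12 h and 0.37 at 48 h on the log2 scale, while that of all genes grew from 0.40 and 0.45 to 0.60. The distance was smaller at 48 h than at 0 h in 40 of 57 members, against 34.0% of all genes, and in 23 of the 33 members without overlap. For complex IV it shrank from 0.99 to 0.30. The time of the highest level differed accordingly: in the CTR line 46 of 57 members were highest at 48 h (44.0% of all genes), in the AE line 30 were highest at 12 h (32.8%), and in the EG line 29 were highest at 0 h (20.2%). After rescaling by the median ratio these 3 counts were 40, 28 and 39, and the distance was again smaller at 48 h in 40 members.

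**Figure D4:**
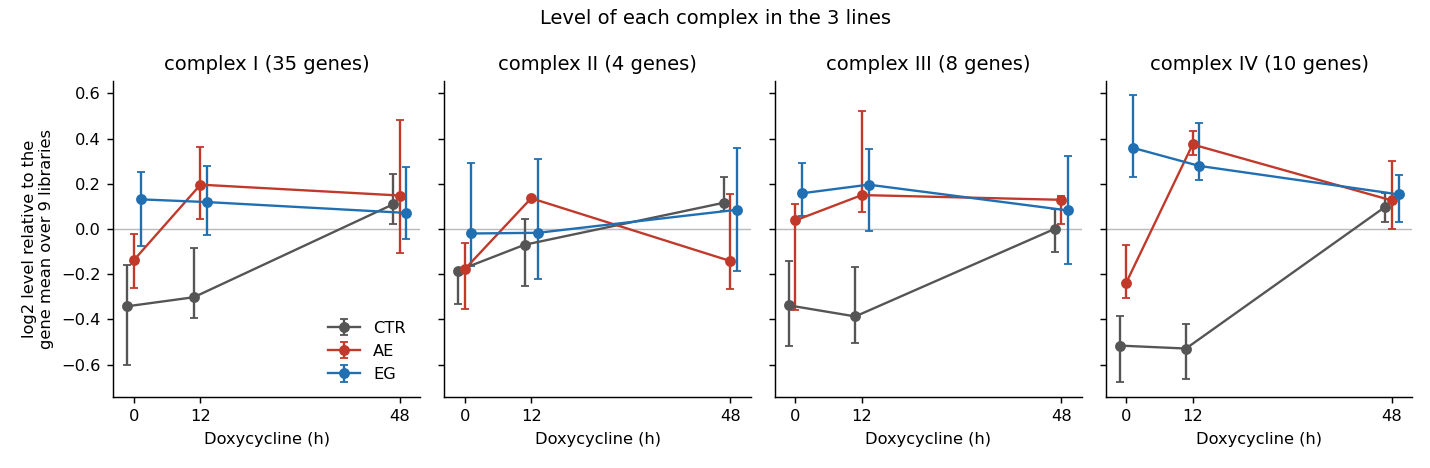
Median log2 level of the genes of each complex relative to each gene's own mean over the 9 libraries, at 0, 12 and 48 h in the CTR, AE and EG lines; bars span the middle 50% of genes, not replicates, and the lines are drawn slightly apart in time. The complex IV lines start at -0.52, -0.24 and 0.36 and end at 0.10, 0.13 and 0.15.

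The fusion protein lines can be set against the empty vector line by subtracting its log2 fold change. The 57 members then had medians of 0.35 at 12 h and -0.20 at 48 h in the AE line, and -0.06 and -0.54 in the EG line, with all genes between -0.02 and 0.02. At 48 h in the EG line, 49 of 57 members lay lower than in the CTR line, where 47.7% of all genes did, among them all 33 without overlap, and 24 of 50 were lower by more than 1.5-fold (9.89% of all genes). These comparisons all contain the CTR libraries, and those at 48 h draw on the late rise of the CTR line. Compared directly with the CTR library of the same time, without the 0 h libraries, the medians were 0.62 and 0.08 in the AE line and 0.49 and -0.01 in the EG line. Hence the sign at 48 h in the AE line and at 12 h in the EG line, and the distance at 48 h in the EG line, depend on whether the uninduced libraries enter.

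Subunits encoded by the mitochondrial genome did not follow the nuclear ones. In the AE line at 48 h, all 7 mitochondrial complex I genes were more than 2-fold lower, with a median log2 fold change of -2.26, where 11.3% of all genes were more than 2-fold lower. MT-CO1, MT-CO2 and MT-CO3 of complex IV had log2 fold changes of -2.65, -2.34 and -2.27 there, and MT-CYB of complex III had -1.95. The summed FPKM of the 3 mitochondrial complex IV genes went from 32243 to 20374 and 19028 in the CTR line, from 27007 to 16131 and 4965 in the AE line and from 28315 to 20484 and 10725 in the EG line. That of the 10 nuclear genes went from 266 to 273 and 388, from 341 to 470 and 379, and from 442 to 425 and 385. Between 0 and 48 h the mitochondrial sum thus fell in all 3 lines. The nuclear sum rose in the CTR and AE lines, and in the EG line it fell by a much smaller proportion than the mitochondrial one. The mitochondrial genes took 6.14% to 7.01% of the reads at 0 h and 2.54% to 4.0% at 48 h. Leaving them out of the library totals lowered the members' median at 48 h to 0.45, 0.25 and -0.22 in the CTR, AE and EG lines.

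**Figure D5:**
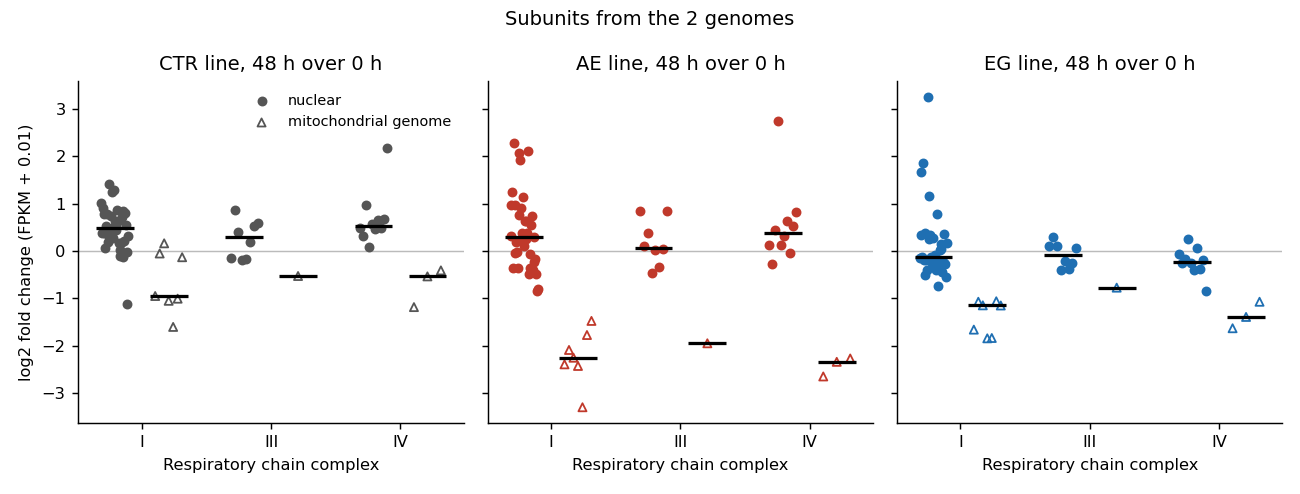
Log2 fold change at 48 h over 0 h of nuclear (filled circles) and mitochondrial genome (open triangles) subunits of complexes I, III and IV in the CTR, AE and EG lines; black bars are medians. In the AE line the mitochondrial genes lie at medians of -2.26, -1.95 and -2.34, and the nuclear ones at 0.30, 0.07 and 0.38.

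Other genes of mitochondrial function were followed as lists. The 18 nuclear ATP synthase genes ran parallel to complex IV, with medians of 0.57 in the CTR line at 48 h, 0.59 and 0.31 in the AE line at 12 and 48 h and -0.11 in the EG line at 48 h, and they stood 0.75 higher in the uninduced EG line than in the uninduced CTR line. In the AE line at 48 h, their extremes were ATP5ME, at 3.03 from a start of only 0.259 FPKM, and ATP5F1A, the alpha subunit, at -0.48. The 13 enzymes of the citric acid cycle did not rise: their medians were -0.15 in the CTR line, -0.25 in the AE line and -0.26 in the EG line at 48 h. SUCLA2 was the highest in the AE line, at 0.24, and fumarase, FH, the lowest, with 52.6, 49.6 and 23.5 FPKM. The 78 mitochondrial ribosomal protein genes had 0.24, 0.02 and -0.16 at 48 h, and the 79 cytosolic ribosomal protein genes, which do not belong to mitochondria, had 0.58, 0.49 and 0.00. A late rise in the CTR line was therefore not particular to the respiratory chain. At 12 h in the AE line, the mitochondrial and cytosolic ribosomal lists had medians of 0.33 and 0.39 (all genes 0.18). At 12 h in the EG line they had 0.11 and -0.16 (all genes 0.11). Uninduced, the EG line exceeded the CTR line by 0.24 and 0.415 in these lists (all genes -0.02). The citric acid cycle enzymes had -0.08, -0.105 and 0.085 in the same comparisons. The early AE rise and the higher uninduced EG level were thus shared by both ribosomal lists.

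Factors that assemble the complexes showed no common direction at 48 h in the AE line. The medians there were 0.01 for the 16 complex I factors, -0.40 for the 4 complex II factors, 0.27 for the 6 complex III factors and 0.42 for the 25 complex IV factors. Over only the genes with a mean of at least 1 FPKM, they were 0.04 (15 genes), -0.905 (3), 0.85 (5) and 0.42 (20). Among these genes, NDUFAF8 and SCO2, the latter a copper chaperone, were the highest of the complex I and IV lists, at 1.74 and 4.05. SCO2 started from only 0.218 FPKM. FOXRED1 and COA7 were the lowest of these 2 lists, at -0.56 and -0.47. For complexes II and III, SDHAF4 (0.11) and TTC19 (0.99) were highest, and SDHAF1 (-1.04) and BCS1L (-0.88) lowest. Among the 14 regulators of mitochondrial biogenesis, the median at 48 h was -0.08 in the CTR line, -0.26 in the AE line and -0.12 in the EG line. GABPA was highest in the AE line, at 0.36, and YY1 the lowest, with 15.9, 10.4 and 4.96 FPKM at 0, 12 and 48 h against 15.7 to 17.8 FPKM in the CTR and EG lines. NRF1 had 5.27, 5.6 and 3.05 FPKM in the AE line and 4.63 to 7.0 FPKM in the other lines.

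Some measured properties moved with these results. Across the 57 members, the log2 difference at 12 h between the AE and CTR lines had a Spearman correlation of -0.52 with exon length, and that at 0 h between the EG and CTR lines -0.40, against -0.18 and -0.15 across all genes. Shorter members thus tended to lie higher relative to the CTR line in these 2 comparisons. At 48 h the correlations were weaker, at -0.13 between the AE and CTR lines and -0.09 between the EG and CTR lines. For the EG line over its own 0 h they were positive, at 0.20 at 12 h and 0.24 at 48 h. The members have a median exon length of 2462 bases, whereas the median over all genes was between 4435 and 4714 bases in the comparisons made. The genes of a comparison share 2 libraries and are not independent, and the part of exon length in the results was not tested. The myeloid granule genes LYZ and ELANE went from 970 to 45.1 FPKM and from 520 to 66.7 FPKM between 0 and 48 h in the AE line. They were also lower at 48 h in the other lines, LYZ from 519 to 380.2 FPKM and ELANE from 428 to 157 FPKM in the CTR line, and LYZ from 1283 to 332 FPKM and ELANE from 490.5 to 122 FPKM in the EG line. The surface integrin ITGAM marks myeloid maturation. Its log2 fold change at 48 h was 2.36 in the EG line, 1.24 in the CTR line and -0.27 in the AE line. In the AE line ITGAM stood at 1.007 and 0.8319 FPKM at 0 and 48 h, a mean below 1 FPKM. MPO went the other way from LYZ and ELANE at 48 h, with log2 fold changes of 2.012 (CTR), 1.796 (AE) and 1.912 (EG). Its level did not exceed 0.78 FPKM. CD33 was also higher at 48 h, at 0.777, 0.150 and 1.009 in the same order. CSF1R went from 0.1873 to 0.01276 FPKM in the AE line and was higher at 48 h than at 0 h in the other lines. The part of these genes in the results was not tested. In bulk RNA, fewer expressing cells and less RNA per cell cannot be told apart.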

How the data were processed

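RNA-seq of 9 U937 libraries was used. Per the study's methods, libraries were made with the TruSeq RNA v2 kit, which does not mark strand, and sequenced on an Illumina instrument; the submitters' processing notes name HISAT2 2.0.5, SAMtools 1.7, HTSeq 0.9.1 and the hg38 build. The authors deposited FPKM values of 60623 genes per library, computed from the gene counts. The methods give default parameters for the counter, a setting that assumes stranded libraries. The annotation version was not given in the sources used here.

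The log2 fold change was computed on FPKM plus 0.01. A gene entered a count when its mean in the libraries compared was at least 1 FPKM, and was counted past 1.5-fold. Reads were recovered from the steps of the FPKM values for 54 of the 57 members, and annotated exon lengths served for UQCRC1, NDUFS5 and UQCRH. The 95% intervals are exact Clopper-Pearson intervals and cover counting error only, since reads carried no molecular identifiers. With 1 library per condition no test was run. The calculations were tested on simulated data. Exon overlap was taken from a GRCh37 annotation by gene identifier, and none of its coordinates is printed. Named genes are every SDH gene, the 2 members of complexes I, III and IV highest and the 2 lowest at 48 h in each line, members past 2-fold, those of highest and lowest level in each complex, and the highest and lowest gene of each companion list at 48 h in the AE line. The 4 promoters, the other core subunits and NRF1 were chosen after their values were seen. The members, gene lists and the rule were chosen with earlier results of these data known. The alternatives were another pseudocount, filter, fold, scaling, reference and summary, and the omission of mitochondrial genes or of overlapping members. Calculations ran in Python 3.11.15 with pandas 2.3.3 for tables, numpy 2.4.6 and, for intervals, scipy 1.17.1. Some measured items are not reported here.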

Additional observations from a re-analysis of the deposited data

Results flagged for a closer look

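COX8A, a small subunit of complex IV, changed by more than 1.5-fold in opposite directions at 48 h: it was higher than at 0 h in the CTR and AE lines and lower in the EG line. The log2 fold change of the CTR line exceeded that of the EG line by 3.03, and that of the AE line exceeded it by 1.67. Each condition is 1 library, so this difference was not tested. The counting intervals of the fold changes ran from 0.88 to 3.77 in the CTR line, from -0.01 to 1.68 in the AE line and from -1.51 to -0.22 in the EG line, on 6 to 65 reads.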

How the results depend on the processing

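No paired analysis was possible because each condition has 1 library and no test was run; for the same reason no replicate could be left out. Values are medians of log2 fold changes, or counts of members past 1.5-fold. Shares of all genes under these alternatives are not given here. The counts therefore have no background beside them and show only how the number moves with the setting. With libraries rescaled by the median ratio, complex I was at -0.15 (CTR 12 h), 0.30 (CTR 48 h), 0.20 (AE 12 h), -0.19 (EG 12 h) and -0.36 (EG 48 h), complex II at -0.037 (CTR 12 h, a reversed sign), -0.19 (EG 12 h) and -0.42 (EG 48 h), and complex IV at -0.15 (CTR 12 h) and -0.46 (EG 48 h); counts were 1 lower (CTR 12 h), 11 higher (CTR 48 h), 5 higher (AE 12 h), 8 higher and 8 lower (AE 48 h) and 11 lower (EG 48 h). With the mean of the 3 libraries at 0 h as reference, complex I was at -0.16 and 0.24 (CTR 12 and 48 h) and 0.23 (EG 12 h), complex II at 0.00 (CTR 12 h) and 0.12 (EG 12 h), and complex IV at -0.37 and 0.20 (CTR) and 0.46 and 0.31 (EG); counts were 3 lower (CTR 12 h), 4 higher (CTR 48 h), 2 lower (AE 48 h), 7 higher (EG 12 h) and 9 higher and 0 lower (EG 48 h). At 2-fold, the counts were 0 higher (CTR 12 h), 4 higher (CTR 48 h), 2 higher (AE 12 h), 3 higher and 0 lower (AE 48 h) and 0 lower (EG 48 h). From a mean of 5 FPKM, they were 0 (CTR 12 h), 9 (AE 12 h), 9 (AE 48 h) and 0 (EG 48 h) higher. Without a filter, they were 3 higher and 1 lower (CTR 12 h), 1 lower (CTR 48 h), 1 lower (AE 12 h), 2 lower (AE 48 h), 4 higher and 2 lower (EG 12 h) and 5 higher (EG 48 h). A pseudocount of 1 FPKM left 0 higher (CTR 12 h). Without mitochondrial genes in the total, they were 1 lower (CTR 12 h) and 1 higher (EG 12 h). Without overlapping members, an alternative chosen after seeing the data, they were 0 (CTR 12 h), 9 (CTR 48 h), 6 (AE 12 h) and 8 (AE 48 h) higher, and 0 higher and 0 lower (EG 48 h). The difference from the CTR line, taken directly between induced libraries, was 0.62 (AE 12 h), 0.075 (AE 48 h, reversed), 0.49 (EG 12 h, also a changed sign) and -0.007 (EG 48 h). The causes were not tested, apart from the smaller number of genes under a stricter filter. With summed FPKM in place of the median, the 24 values stayed within the spread of their genes, but the sign changed for complex I (CTR 12 h, -0.053), complex II (EG 12 h, 0.006) and complex III (AE 48 h, -0.121). The sign also changed after median ratio rescaling for complexes I and IV (CTR 12 h, above), complex II (AE 48 h, -0.033) and complex III (AE 48 h, -0.171). With the mean 0 h reference it changed for complexes I and IV (CTR 12 h, above), all 4 complexes in the EG line at both times (complex III 0.328 and 0.173, and complexes I and II 0.151 and 0.217 at 48 h), complex II (AE 48 h, -0.026) and complex III (CTR 48 h, -0.014). Read number limits the low members most, as for SDHA on 43 to 83 reads.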
